A study of Mus musculus with 6 samples.

Results

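Among the regions where all 6 Arid3a CUT&Tag peak lists held a peak, 922 lay across a narrow gap between neighbouring protein-coding genes. Peaks of the 6 lists were joined wherever they overlapped by at least 1 bp, which gave 79295 regions, and 29602 of these had a peak in every list. The 922 regions, 3.11% of the 29602, were those overlapping a gap of 1 to 1000 bp between the bodies of adjacent, non-overlapping genes on the mm10 build. They covered 920 of 2000 such gaps and bordered 1788 genes on 20 chromosomes. The regions were thus selected on peak presence in all 6 lists, and that presence is not a finding. All regions compared with them had passed the same selection.

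CUT&Tag directs a transposase with an antibody, here against Arid3a, to a protein on chromatin and sequences the DNA cut around it. Primary vascular smooth muscle cells (VSMCs) of the mouse, bought from a supplier, were transfected with siRNA, left for 24 h and assayed at 10000 cells. The 3 NC libraries received a negative control siRNA and the 3 siArid3a libraries received siRNA 1, 2 or 3 against Arid3a. The protocol also describes a 36 h angiotensin II (Ang II) model of abdominal aortic aneurysm, but the labels do not give the Ang II exposure of each library, nor whether each library had its own culture. The p-values between groups therefore reflect variation among these libraries alone, and that may be technical. Inside each of the 6 lists, the individual peaks are named after the like-numbered library of the opposite group. Directions below follow the sample labels and would be the opposite under the names inside the lists. Arid3a RNA and protein were not analysed here, so no value here checks the knockdown.

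The lists held 43834 to 51682 peaks on 21 chromosomes. Each peak comes with a fold, its summit pileup of fragments divided by the library's local background, and a −log10 q-value, both the authors' values. The fragments at each summit and the background could be solved from the fold and the −log10 p-value, which is also given, for 100% of peaks. The usual background was 0.67, 0.673 and 0.621 fragments in the NC libraries and 0.475, 0.482 and 0.538 in the siArid3a libraries, 1.31 times higher in NC (exact permutation test, two-sided, p = 0.1, the smallest that 3 against 3 allows). Of 8 VSMC markers 4 had a shared region within 1000 bp of a gene end, Acta2, Tagln, Smtn and Lmod1, against 0 of 6 endothelial, 1 of 6 macrophage and 1 of 5 fibroblast markers. Over all 21887 protein-coding genes the share was 44.5%, so 4 of 8 is near the share of any gene. Occupancy is not expression, and the other VSMC markers Myh11, Cnn1, Myocd and Des had none.

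Where the starts of neighbouring genes face each other across a short stretch, the stretch can serve as a bidirectional promoter for both. Such promoters are common in mammals, usually lie in CpG islands, and often serve housekeeping genes of DNA repair, mitochondria and protein synthesis. Adjacent genes can also run the same way (tandem), or end towards each other (tail-to-tail), in which case the gap lies between ends and no start faces it. ARID3A is known to bind AT-rich DNA through its ARID domain.

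The gaps below show what lay between the genes at some of the regions. They are RefSeq sequence of the GRCm38.p6 assembly (mm10), 5′ to 3′ on the forward strand, and contain no part of either gene body. Capitals mark the motifs searched on both strands, CCGGAAG (ETS type), GGGCGG (GC box), CCAAT, GCATGCGC (NRF1 type), ATGGCGG (YY1 type), TGACGTCA (CRE), TCTCGCGA, CACGTG (E-box), TATAAA, and ATTAAA or ATCAAA (AT-rich, of the ARID3A type). No motif in this set is contained in another, but matches can overlap. A match is a description and not a binding site. The first 3 gaps belong to regions among the 10 ranked highest by their lowest −log10 q percentile over the lists, at chr16:20717747-20717825, chr2:3512815-3513064 and chr12:65073939-65074109.
Clcn2/Polr2h: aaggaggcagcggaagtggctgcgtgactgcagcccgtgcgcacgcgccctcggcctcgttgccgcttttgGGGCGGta
Hspa14/Cdnf: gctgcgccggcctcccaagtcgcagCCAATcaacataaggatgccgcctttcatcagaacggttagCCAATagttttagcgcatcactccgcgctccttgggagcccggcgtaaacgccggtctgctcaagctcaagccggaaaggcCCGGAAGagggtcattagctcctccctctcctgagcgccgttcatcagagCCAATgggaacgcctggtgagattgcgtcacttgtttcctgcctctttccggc
Fkbp3/Fancm: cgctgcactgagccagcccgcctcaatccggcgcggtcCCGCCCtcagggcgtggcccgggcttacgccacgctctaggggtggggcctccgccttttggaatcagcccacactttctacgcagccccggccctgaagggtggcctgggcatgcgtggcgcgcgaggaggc

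The next gaps lie between divergent histone genes, at chr13:21787249-21787482 and chr13:23571221-23571399. They are shown because their base composition differs from that of the gaps above.
H2ac22/H2bc22: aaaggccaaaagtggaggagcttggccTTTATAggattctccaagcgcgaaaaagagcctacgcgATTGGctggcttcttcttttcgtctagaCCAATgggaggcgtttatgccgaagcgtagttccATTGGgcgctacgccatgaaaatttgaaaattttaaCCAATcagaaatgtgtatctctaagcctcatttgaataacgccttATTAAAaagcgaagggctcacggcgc
H2ac8/H2bc8: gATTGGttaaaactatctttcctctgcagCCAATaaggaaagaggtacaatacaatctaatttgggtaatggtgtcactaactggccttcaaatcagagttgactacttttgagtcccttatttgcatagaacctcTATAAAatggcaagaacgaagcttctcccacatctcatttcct
The 234 bp gap of H2ac22/H2bc22 was 45.7% G or C with 6 motif matches, and the 179 bp gap of H2ac8/H2bc8 was 38.5% G or C with 1 CpG. The 79 bp gap of Clcn2/Polr2h, in contrast, was 69.6% G or C with 10 CpGs.

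The last set comes from pairs described in textbooks as bidirectional, and from 2 pairs that recur below, at chr9:53536829-53536888, chr17:34187331-34187555, chr11:69580251-69580347, chr17:56717700-56717761 and chr11:32533241-32533265.
Atm/Npat: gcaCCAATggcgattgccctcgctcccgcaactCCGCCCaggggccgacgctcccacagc
Psmb9/Tap1: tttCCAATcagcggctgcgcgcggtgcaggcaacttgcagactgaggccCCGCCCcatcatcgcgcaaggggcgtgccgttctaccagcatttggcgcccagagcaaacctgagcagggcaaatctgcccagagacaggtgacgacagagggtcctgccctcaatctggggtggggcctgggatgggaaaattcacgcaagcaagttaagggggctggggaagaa
Wrap53/Trp53: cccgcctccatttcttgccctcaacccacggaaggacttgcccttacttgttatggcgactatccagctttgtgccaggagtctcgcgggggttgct
Vmac/Ndufa11: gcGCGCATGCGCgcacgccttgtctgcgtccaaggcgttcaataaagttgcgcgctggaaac
Efcab9/Stk10: gtgccgggcgtcctgcaggcgggtc
The gap of Vmac/Ndufa11 held overlapping matches to the NRF1 type motif, and the gaps of Wrap53/Trp53 and Efcab9/Stk10 held none of the motifs. The promoter windows covered the whole gap at 493 gaps, of which 378 were head-to-head, with a median of 63.5% G or C.

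The orientation of the genes, which the selection did not use, separated gaps with a region from gaps without one. Strand was known for both genes at most gaps. A shared region lay across 485 of 563 head-to-head gaps (86.1%), 196 of 444 tandem gaps (44.1%), 9 of 424 tail-to-tail gaps (2.12%) and 230 of 569 gaps in which the strand of a gene was not in the tables used (40.4%). These 4 shares are a description, since they use the selected regions.

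In each list on its own, a peak of any kind overlapped 85.8% to 88.5% of head-to-head gaps, 39.2% to 44.8% of tandem gaps and 2.36% to 4.01% of tail-to-tail gaps. Head-to-head exceeded tandem by 44.1 ± 1.45 percentage points (SD, n = 6 libraries) and tandem exceeded tail-to-tail by 40.0 ± 1.93 points. Both differences had the same sign in 6 of 6 libraries (exact sign-flip permutation test over libraries, two-sided, p = 0.03125 each, the smallest that 6 libraries allow). Most gaps counted in a list also lay under a shared region, which by selection has a peak in all 6 lists. The p-values therefore show only that the shares repeat between lists and are no separate support for the order. The 3 ranges do not overlap, so gaps that hold 2 starts, 1 start and 0 starts followed in that order in every library.

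**Figure D1:**
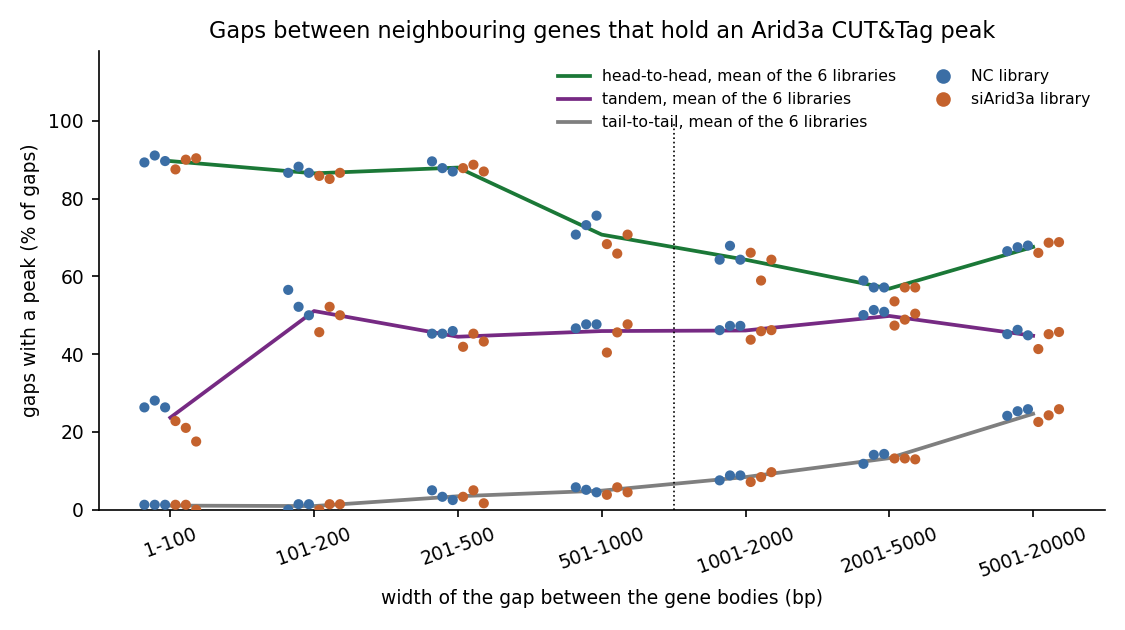
Share of gaps between neighbouring genes with a peak (%, vertical axis) by gap width in bp (horizontal axis), with 1 point per library (blue NC, orange siArid3a) and a line through the mean of the 6 libraries for each orientation. The dotted line marks the 1000 bp limit; head-to-head gaps stay at 85.0% to 91.1% up to 500 bp, and tail-to-tail gaps stay below 6% up to 1000 bp.

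Gap width mattered little among the closest head-to-head genes. The share of head-to-head gaps with a shared region was 88.2% at 1 to 100 bp, 87.4% at 101 to 200 bp and 86.1% at 201 to 500 bp. It was 68.3% at 501 to 1000 bp, and 58.9% just past the limit, at 1001 to 2000 bp. Tandem gaps gave 29.8% at 1 to 100 bp and 56.5% at 101 to 200 bp, over only 57 and 46 gaps. The plot of the share of gaps with a peak shows the same course in each library.

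Of the 922 regions, 486 were head-to-head, 196 tandem, 9 tail-to-tail, 230 of unknown orientation, and 1 lay over gaps of different orientation. The gaps had a median of 165 bp (1 to 999 bp). Head-to-head gaps were narrower, with a median of 99 bp, than tandem gaps, with 442 bp. A single peak per list made up 810 of the 922 regions, and the merged regions were 302 to 2987 bp wide with a median of 1011.5 bp.

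At the limit of 1000 bp, the member nearest to it was Pcgf2/Psmb3, with a gap of 999 bp and a fold of 5.75 to 6.47 over the libraries. The closest region outside was Ankrd34a/Lix1l, with a gap of 1006 bp and a fold of 8.09 to 10.1. The 5 members nearest the limit had folds of 5.75 to 11.3, and the 5 nearest outside had 4.88 to 11.0.

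Head-to-head gaps without a shared region numbered 78. At 52 of them no list had a peak, and the other 26 had a peak in 1 to 5 lists. Of these 26, 7 had a peak in 5 lists and so missed the selection by 1 list, among them Ndufs3/Kbtbd4 and Eif2b1/Gtf2h3, a choice made after their values were seen. Of the 78 gaps 66 lay more than 1000 bp from any shared region. Of the 52 with no peak, 10 had a shared region within 1000 bp of the gap. They included Brca1/Nbr1, a textbook pair 151 bp apart, where a shared region began 5 bp beyond the gap.

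Peaks in narrow gaps were stronger than those at other gene ends. The median fold of the 922 regions was 8.69, 9.02 and 8.94 in the NC libraries and 8.49, 9.14 and 9.12 in the siArid3a libraries. The 8036 other shared regions within 1000 bp of a gene end gave 7.98, 8.35 and 7.99 in NC and 7.55, 8.35 and 8.44 in siArid3a. Within each library the 922 regions together were higher, by 0.791 ± 0.126 (SD, n = 6, exact sign-flip permutation p = 0.03125, adjusted p = 0.0352 over 18 such tests). Here and below, SD and p over libraries come from repeated measurement of the same regions and do not measure the spread among regions. Tandem regions alone were below the other gene-end regions in every library, with median folds of 7.04 to 7.86 against 7.55 to 8.44. Tail-to-tail regions had 4.65 to 6.48.

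The −log10 q-value and the peak width gave the same order. Median −log10 q was 27.0, 29.9 and 27.1 in NC and 20.6, 25.0 and 26.1 in siArid3a. Ranked within its own list, the median region stood at a percentile of 82.4 to 85.2, 6.89 ± 0.870 points above the other gene-end regions. Peaks covered a median of 862, 864 and 838 bp per region in NC and 784.5, 746.5 and 795.5 bp in siArid3a, 93.6 ± 10.4 bp more than at other gene ends. Both differences held in 6 of 6 libraries (exact sign-flip permutation p = 0.03125 each, adjusted p = 0.0352). Other gene ends include ends without a start. Against shared regions over other start sites the narrow-gap regions were higher by less. The differences were 0.463 ± 0.140 in fold, 4.94 ± 0.663 points in percentile and 68.9 ± 10.3 bp in width (exact sign-flip permutation p = 0.03125 each, adjusted p = 0.0352). A wide region overlaps a gap more readily than a narrow one. How far that enters the differences in width, fold and percentile was not tested.

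Head-to-head regions stood highest in fold. Their median fold was 9.47, 9.91 and 9.61 in NC and 9.33, 10.1 and 10.1 in siArid3a, and that of tandem regions was 7.28, 7.65 and 7.39 in NC and 7.04, 7.75 and 7.86 in siArid3a. Every library thus had head-to-head regions above tandem regions, and over tandem and tail-to-tail regions together the difference was 2.38 ± 0.0705 (SD, n = 6, exact sign-flip permutation p = 0.03125). The 6165 shared regions over other start sites lay between them, with medians of 7.83 to 8.77. Head-to-head regions exceeded those by 1.31 ± 0.118 and tandem regions fell by 0.942 ± 0.0944 below them (exact sign-flip permutation p = 0.03125 each). This order is one of fold, which divides by local background. In median summit fragments, tandem regions had 41, 50 and 39 in NC and 29.5, 35.5 and 39.5 in siArid3a. Other start sites had 38, 40 and 36 in NC and 28, 32 and 35 in siArid3a, lower in every library. Head-to-head regions had 46, 50 and 46 in NC and 37, 40.5 and 43 in siArid3a, level with tandem regions in NC library 2. By percentile and by width, tandem regions were not separated from other start sites (differences of −0.994 points and −24.2 bp, exact sign-flip permutation p = 0.0938 and 0.125, 1 of 6 libraries in the other direction for each), which does not show that they are alike.

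**Figure D2:**
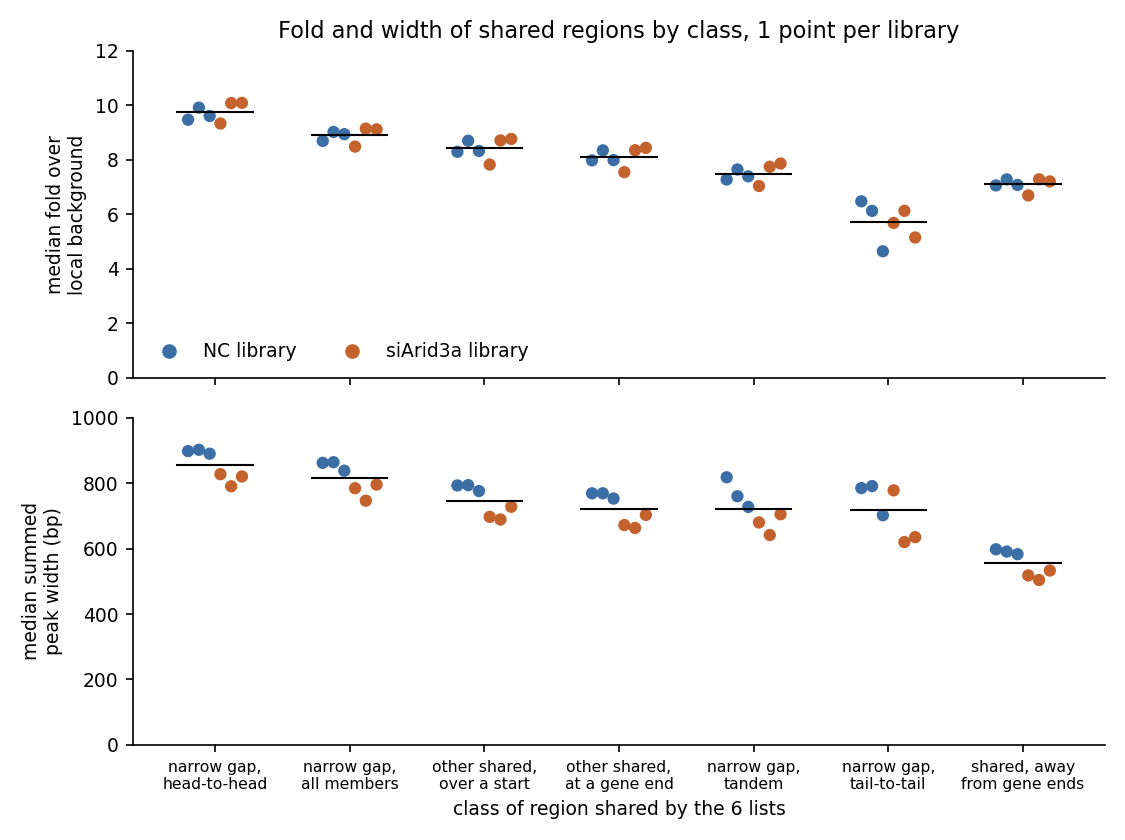
Median fold over local background (upper axis, no unit) and median summed peak width in bp (lower axis) for each class of shared region, with 1 point per library (blue NC, orange siArid3a) and a bar at the mean of the 6. Head-to-head regions stand highest in fold, at 9.33 to 10.1, and tail-to-tail regions lowest, at 4.65 to 6.48.

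The 9 tail-to-tail regions, where no annotated start faces the gap, were weak. Their median fold was 6.48, 6.13 and 4.65 in NC and 5.69, 6.13 and 5.15 in siArid3a. The 2 highest ranked were 2310039H08Rik/Rpl7l1, with a fold of 7.33, 8.05 and 6.40 in NC and 6.23, 6.13 and 7.60 in siArid3a, and Eva1b/Sh3d21, with 8.46, 7.39 and 7.17 in NC and 5.69, 8.90 and 7.73 in siArid3a. The groups overlapped at both. The others were Wnk4/Coa3, Dmac2l/Cdkl1, Tubg2/Plekhh3, Hrc/Ppfia3, Znhit2/Tm7sf2, Duox1/Shf and Ltb4r1/Adcy4. A tail-to-tail region can still reach a start on the far side of a gene. The Wnk4/Coa3 region ended 2 bp from the head-to-head gap of Coa3/Cntd1, which is counted above among gaps with no peak. Its summit lay a median of 767 bp outside the Wnk4/Coa3 gap. Only at Eva1b/Sh3d21 and Tubg2/Plekhh3 did the summit lie in the gap in all 6 libraries.

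The summit, the position of highest pileup, was more often beside the gap than in it. Per library 27.3% to 29.7% of the regions had their summit between the genes (mean 28.5% ± 0.818, SD, n = 6). It lay in the gap in all 6 libraries at 163 regions and in none at 512. Narrow gaps leave little room: among head-to-head regions the share was 5.26% to 9.31% for gaps up to 100 bp, 28.8% to 36.0% at 101 to 200 bp and 57.1% to 63.3% at 201 to 500 bp. The summit moved by a median of 143 bp between the libraries for one region, so the side of a narrow gap is often not resolved. Even so, 316 of 486 head-to-head regions (65.0%) had their summit on the same side of the gap's centre in all 6 libraries, 148 on the right and 168 on the left on the forward strand.

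At tandem regions the summit was nearer to the end of the gap that holds a start in 88.8% to 92.3% of the 196 regions per library. The summit lay a median of 55.5 to 82 bp inside the gene from that start. It moved between libraries by a median of 135.5 bp, against 144 bp at head-to-head regions. The plot of summit distance against gap width shows many tandem regions above the line that marks the gap's edge.

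**Figure D3:**
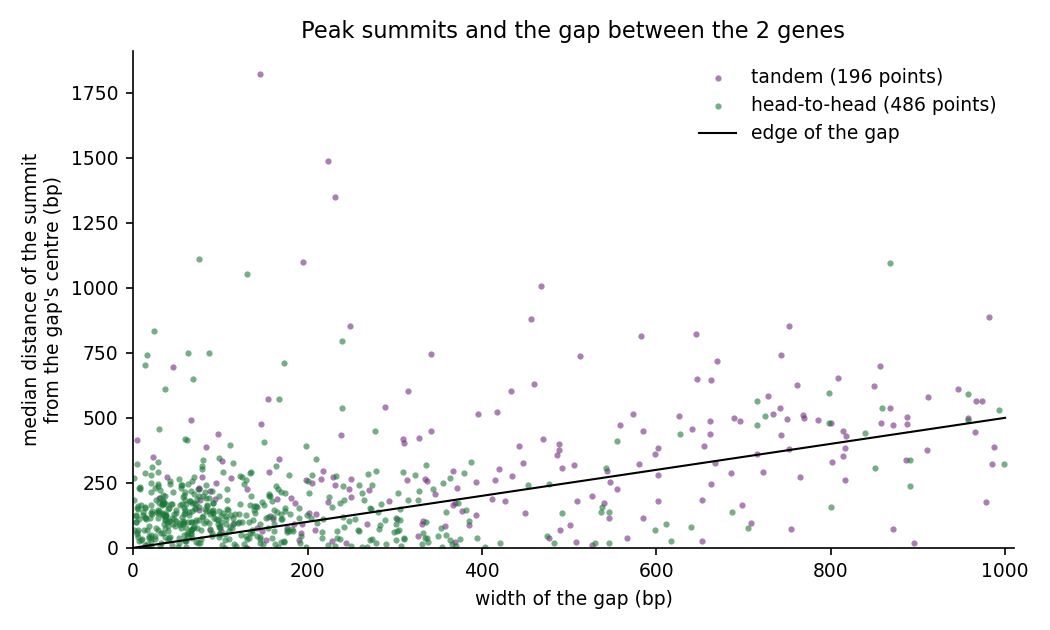
Median distance of the peak summit from the centre of the gap over the 6 libraries (bp, vertical axis) against the width of the gap (bp, horizontal axis), 1 point per region and gap, green head-to-head and purple tandem. Points under the line have their summit in the gap, and most of the head-to-head points at gaps up to 100 bp lie above it.

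Gap width itself was only weakly related to strength. Across the 486 head-to-head regions Spearman's rho between gap width and fold was 0.0908 to 0.147 over the libraries, and across the 196 tandem regions it was −0.111 to −0.0365. These are correlations across regions of 1 library, which are not independent replicates, and are given as a description.

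The strongest of all narrow-gap regions was at Gamt/Dazap1 (chr10:80260752-80261881), between a gene for an enzyme of creatine synthesis and a gene for an RNA-binding protein, with a gap of 336 bp. Its fold was 12.6, 13.4 and 12.9 in NC and 13.7, 15.1 and 13.8 in siArid3a, and its −log10 q was 362 to 501. The siArid3a values of the fold lie above the NC values, but on scaled fragments the difference was 0.17 on the log2 scale and did not pass the test described below (limma, adjusted p = 0.216). Its summit lay in the gap in all 6 libraries and moved by 1 bp.

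Clcn2/Polr2h (chr16:20716788-20718078) pairs a chloride channel with a subunit shared by the RNA polymerases, and had a fold of 15.1, 15.9 and 16.0 in NC and 16.4, 15.8 and 16.3 in siArid3a. Its summit was outside the 79 bp gap, whose sequence stands first above, in all libraries. Hspa14/Cdnf, a heat shock protein gene and a neurotrophic factor gene, had 19.4, 20.5 and 19.4 in NC and 19.1, 20.4 and 21.1 in siArid3a. In fold the groups overlapped at both. On scaled fragments Clcn2/Polr2h was higher in every siArid3a library than in any NC library, but did not pass the test below (limma, adjusted p = 0.240). At Hspa14/Cdnf the summit lay inside the 250 bp gap in all 6 libraries, in the sequence with 4 motif matches.

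Fkbp3/Fancm pairs a prolyl isomerase with a helicase of the Fanconi anaemia pathway. Its fold was 19.7, 20.3 and 18.9 in NC and 18.9, 19.8 and 19.6 in siArid3a, with overlapping groups. The only pair known to be tandem among the 10 highest ranked regions was Jpt2/Cramp1l, at 19.3, 19.2 and 18.9 in NC and 20.4, 19.9 and 19.9 in siArid3a. Its siArid3a folds lay above its NC folds, but on scaled fragments it did not pass the test below (limma, adjusted p = 0.292). The remaining ones of the 10 were Aasdhppt/Kbtbd3 (fold 16.3 to 18.5), Cdca2/Kctd9 (12.7 to 14.9), 1700056E22Rik/Dusp10 (13.2 to 15.1), Heatr5b/Gpatch11 (18.5 to 21.6) and Mob3a/Izumo4 (10.7 to 13.0). The rank follows −log10 q, which at a given fold is larger where more fragments were counted, so it does not order the regions by fold. Gamt/Dazap1 had 490 to 688 summit fragments, and Heatr5b/Gpatch11, with a higher fold, had 166 to 225.

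The narrowest gaps, of 1 bp, were those of 1110032A03Rik/Fdxacb1, Snx5/Mgme1, Gak/Tmem175 and Emc3/Fancd2, followed by Tmem209/Ssmem1 with 3 bp. Their folds ranged from 5.90 to 15.0, and none had its summit in the gap in any library. The widest merged regions were LOC108167694/Gm20783 (2987 bp), Nat14/Ssc5d (2409 bp), Uqcrh/Lrrc41 (2341 bp), Pafah1b2/Sik3 (2235 bp) and Sgsm2/Tsr1 (2229 bp). At LOC108167694/Gm20783 the summit moved by 2088 bp between libraries, so the strongest peak was not at the same place in each.

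Of 22 pairs given in textbooks as sharing a promoter, 8 were among the regions, 12 have overlapping gene bodies in this annotation and so have no gap, 1 has a gap over the limit (Col4a5/Col4a6, 1274 bp, with a peak in 0 libraries), and 1 was Brca1/Nbr1. Strong examples came from DNA repair. Mcm4/Prkdc, a subunit of the replicative helicase and the catalytic subunit of DNA-PK, had a fold of 18.8, 17.7 and 17.6 in NC and 20.9, 18.4 and 18.9 in siArid3a. Atm/Npat, the DNA damage kinase and a coactivator of histone genes, had 10.7, 13.6 and 10.1 in NC and 12.4, 14.5 and 14.3 in siArid3a. The siArid3a values were not apart from the NC values on this scale at either pair.

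Aimp2/Pms2, a scaffold of the tRNA synthetase complex and a mismatch repair protein, had a fold of 9.56 to 11.5. Sirt3/Psmd13, a mitochondrial deacetylase and a proteasome subunit, had 9.47 to 12.7, and Mrps12/Sars2, a mitochondrial ribosomal protein and a mitochondrial seryl-tRNA synthetase, had 7.53 to 9.43. Psmb9/Tap1, an immunoproteasome subunit and the peptide transporter of antigen presentation, had 13.5, 13.8 and 12.7 in NC and 12.9, 10.3 and 11.7 in siArid3a. Wrap53/Trp53, the tumour suppressor p53 and a neighbour involved in telomerase trafficking, was lower in fold, at 3.53, 4.47 and 4.00 in NC and 4.24, 4.68 and 4.94 in siArid3a. That is below the lower quartile of fold of the 922 regions in every library, which was 6.38 to 7.06. Its summit fragments were not low, at 54, 65 and 59 in NC and 48, 50 and 61 in siArid3a. The median of the 922 regions was 46, 50 and 45 in NC and 35, 39 and 42 in siArid3a, lower in every library.

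Genes of several housekeeping groups bordered the regions. Of all 21887 genes 16.5% had a neighbour within a narrow gap, 8.17% bordered one of the regions and 44.5% had a shared region within 1000 bp of a gene end, which was 84.6% to 91.9% in these 6 groups. Of 99 matched genes of DNA repair and replication 34 had a neighbour within a narrow gap and 24 bordered one of the regions (24.2%). The corresponding counts were 48 and 33 of 104 for mitochondrial chaperones, import and respiratory chain, 28 and 24 of 75 for mitochondrial ribosomal proteins, and 12 and 10 of 37 for aminoacyl-tRNA synthetases. Cytosolic ribosomal proteins gave 22 and 14 of 81, and proteasome subunits 11 and 8 of 39. Read against genes that have a narrow gap at all, 70.6% of the DNA repair genes bordered a region, against 49.4% of all genes. These are descriptions with no test.

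As a description with no test, the median fold per library was 10.8 to 12.6 for the 24 DNA repair regions, above the 8.49 to 9.14 of all 922, and 7.44 to 8.45 for the 16 regions of cytosolic ribosomal proteins. The 3 highest ranked regions of the former are Fkbp3/Fancm, Mcm4/Prkdc and Tmem43/Xpc (fold 13.4 to 16.9), which holds a gene of nucleotide excision repair. The 3 highest ranked of the latter are Rpl15/Nkiras1 (14.7 to 17.6), Med22/Rpl7a (11.8 to 13.8) and Zc3h10/Rpl41 (7.56 to 10.7). Respiratory chain genes gave Uqcrh/Lrrc41 (12.5 to 14.5), Ndufa4/Phf14 (14.9 to 20.2) and Vmac/Ndufa11 (11.1 to 15.8). Mitochondrial ribosomal protein genes gave Mrpl41/Pnpla7 (10.8 to 14.7), Mrpl54/Apba3 (9.34 to 11.4) and Mrpl40/Hira (9.63 to 11.9). Lyrm4/Fars2 (15.3 to 17.0) and D17H6S56E-5/Vars (6.12 to 7.34) hold synthetase genes, and Ftsj3/Psmc5 (9.89 to 13.0) and Mrpl32/Psma2 (11.1 to 14.5) hold proteasome genes.

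Replication-dependent histone genes, which encode the bulk histones made in S phase, lie in clusters. Of 62 such genes 42 had a neighbour within a narrow gap and 29 bordered one of 15 regions (46.8%). H2ac6/H2bc4 had a fold of 13.7, 14.1 and 14.1 in NC and 14.7, 13.4 and 14.4 in siArid3a. H2ac22/H2bc22 had 11.0, 10.0 and 10.6 in NC and 10.0, 10.7 and 9.90 in siArid3a. H2ac8/H2bc8 had 7.42, 7.46 and 6.82 in NC and 7.77, 7.40 and 7.74 in siArid3a. In fold the groups overlapped at each of the 3 pairs, and the summit lay in the gap in all 6 libraries. On scaled fragments H2ac8/H2bc8 was higher in every siArid3a library than in any NC library, but did not pass the test below (limma, adjusted p = 0.412). Reads that fit several of these near-identical genes could have been placed at any of them, so the values of single histone pairs are uncertain.

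Of 39 matrix and contractile genes of the vessel wall 0 bordered one of the regions, and 3 (7.69%, against 16.5% of all genes) had a neighbour within a narrow gap, in Stambpl1/Acta2 and Selenom/Smtn, both tail-to-tail, and B9d2/Tgfb1, which is tandem. No list had a peak in any of these 3 gaps, too few to describe the group. Of the same 39 genes 24 (61.5%, against 44.5% of all genes) had a shared region within 1000 bp of a gene end.

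Around the start sites, the windows of head-to-head pairs were rich in CpG. The window of 250 bp before to 50 bp after each RefSeq start had a median of 62% G or C and an observed-over-expected CpG ratio of 0.855 for 968 windows of head-to-head genes. It was 62% and 0.803 for 5891 windows in other shared regions, 0.736 for 195 tandem windows and 49.7% and 0.246 for the 9045 windows with no peak. The 2 windows of a pair overlap and are not independent.

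The short motifs differed between these sets of windows. CCGGAAG was in 29.2% of head-to-head windows, 20.1% of windows in other shared regions, 3.86% of windows with no peak and 11.9% of all 17492 windows of the same length. TCTCGCGA was in 6.10%, 2.68%, 0.354% and 1.53%, and ATGGCGG in 14.0%, 9.05%, 1.76% and 5.44%. GGGCGG was in 68.7%, 71.4%, 24.9% and 46.3% and CCAAT in 44.9%, 41.0%, 37.6% and 39.2%. The AT-rich letters ATTAAA or ATCAAA were in 11.2% of head-to-head windows, 12.1% of windows in other shared regions, 27.3% of windows with no peak and 20.1% of all. TATAAA likewise was in 5.06%, 6.01%, 19.9% and 13.3%. In the 195 tandem windows the shares were 26.2% for CCGGAAG, 1.54% for TCTCGCGA, 11.8% for ATGGCGG and 14.9% for the AT-rich letters. Base composition differed between the sets as given above, and its part in these shares was not tested.

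**Figure D4:**
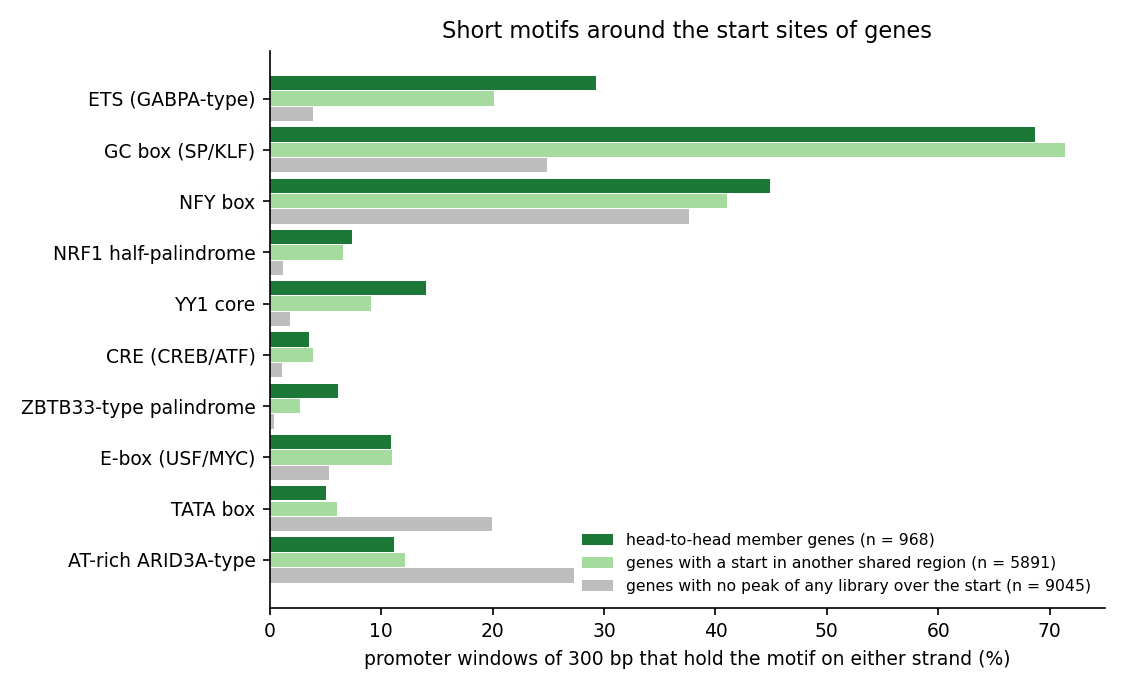
Share of promoter windows of 300 bp that hold each short motif on either strand (%, horizontal axis, from 0) for head-to-head genes of the regions, genes whose start lies in another shared region, and genes with no peak over the start. The ETS type motif stands at 29.2%, 20.1% and 3.86%, and the AT-rich letters at 11.2%, 12.1% and 27.3%.

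The gaps alone, with a median of 72.5 bp where the sequence was known and the pair head-to-head, are shorter than the 300 bp windows and so hold any given motif less readily. Of 336 head-to-head gaps of at least 20 bp with a known sequence, 151 held GGGCGG (44.9%), 105 CCAAT (31.3%), 39 CCGGAAG (11.6%) and 19 GCATGCGC (5.65%). ATGGCGG was in 0 of the 336. The windows, unlike the gaps, reach 50 bp into the gene. Among the 486 head-to-head regions, the 262 with CCAAT in a window had a median fold of 9.88 to 10.7 over the libraries and the 224 without it 8.68 to 9.54. Of the AT-rich letters, the 39 with ATTAAA had 8.17 to 9.45 and the 447 without it 9.40 to 10.1, whereas the 47 with ATCAAA had 9.40 to 10.4 and the 439 without it 9.32 to 10.1. These are descriptions across regions, chosen from 11 motifs.

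Whether Arid3a knockdown changed the narrow-gap regions was asked with limma on the log2 of summit fragments scaled by each library's background, fitted over all 29602 shared regions. Since every region has a peak in all 6 lists, a peak lost on knockdown could not be among them. Of all shared regions 132 passed an adjusted p of 0.05 (0.446%), 121 of them higher in siArid3a (0.409%) and 11 lower. Among the 922 regions 3 passed (0.325%), all higher in siArid3a, which is near the background share. Single libraries moved these counts widely: without siArid3a library 1 they were 1147 of all shared regions and 51 of the narrow-gap regions, and without any one of the other libraries 6 to 27 and 0 or 1. The 1147 calls leave siArid3a libraries 2 and 3, the most alike siArid3a pair. A chi-square per region, larger where 2 libraries differ more, was 0.691 for that pair over all shared regions. It was 0.825 and 0.816 for siArid3a library 1 against libraries 2 and 3, and 0.700 to 0.733 among NC libraries. What sets library 1 apart was not tested. With all 6 libraries, the median difference between siArid3a and NC was 0.12 on the log2 scale for the 922 and 0.11 for all shared regions.

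Nsa2/Gfm2 (chr13:97137554-97138279), genes for ribosome assembly and mitochondrial ribosome recycling 6 bp apart, had 20, 17 and 26 summit fragments in NC and 34, 29 and 29 in siArid3a. All siArid3a libraries were above all NC libraries, also in fold, at 8.29, 8.36 and 10.5 against 15.1, 12.8 and 13.4. The log2 difference after scaling was 0.94 ± 0.20 (SE, limma, adjusted p = 0.0236).

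BC029722/Eif6 (chr2:155818865-155820343) holds the gene of a factor that keeps ribosomal subunits apart. It had 84, 94 and 90 fragments in NC and 82, 95 and 119 in siArid3a, and a fold of 6.16, 6.22 and 7.15 against 7.82, 7.88 and 8.99. The fragments overlapped between the groups and the folds did not, and the scaled difference was 0.52 ± 0.12 (SE, limma, adjusted p = 0.0383).

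Nadsyn1/Dhcr7 (chr7:143822242-143823135) pairs NAD synthetase with an enzyme of late cholesterol synthesis. It had 75, 106 and 96 fragments in NC and 98, 103 and 98 in siArid3a, and a fold of 12.2, 14.5 and 15.0 against 15.2, 16.7 and 16.0. Again only the scaled values and the folds were apart, with a scaled difference of 0.52 ± 0.13 (SE, limma, adjusted p = 0.0444). The lower background of the siArid3a libraries moves with these calls, and its part in them was not tested.

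The calls did not hold under another scaling. With the median over all shared regions set equal between libraries, which removes a shift of 0.11 on the log2 scale, 64 of 29602 regions passed (0.216%), 28 higher and 36 lower. None of the 3 pairs did, with log2 differences of 0.83, 0.41 and 0.41 (limma, adjusted p = 0.0511, 0.105 and 0.132 in the order above). The 1 narrow-gap region that passed then was Efcab9/Stk10, lower in siArid3a, with 126, 128 and 104 fragments in NC and 55, 73 and 79 in siArid3a. Its log2 difference was −0.50 with equal medians (limma, adjusted p = 0.0397) and −0.40 with the background scaling (adjusted p = 0.124). On the deposited fold no region passed (limma). An unadjusted p under 0.05 was found for 55 of the 922 (5.97%) and for 7.37% of all shared regions.

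**Figure D5:**
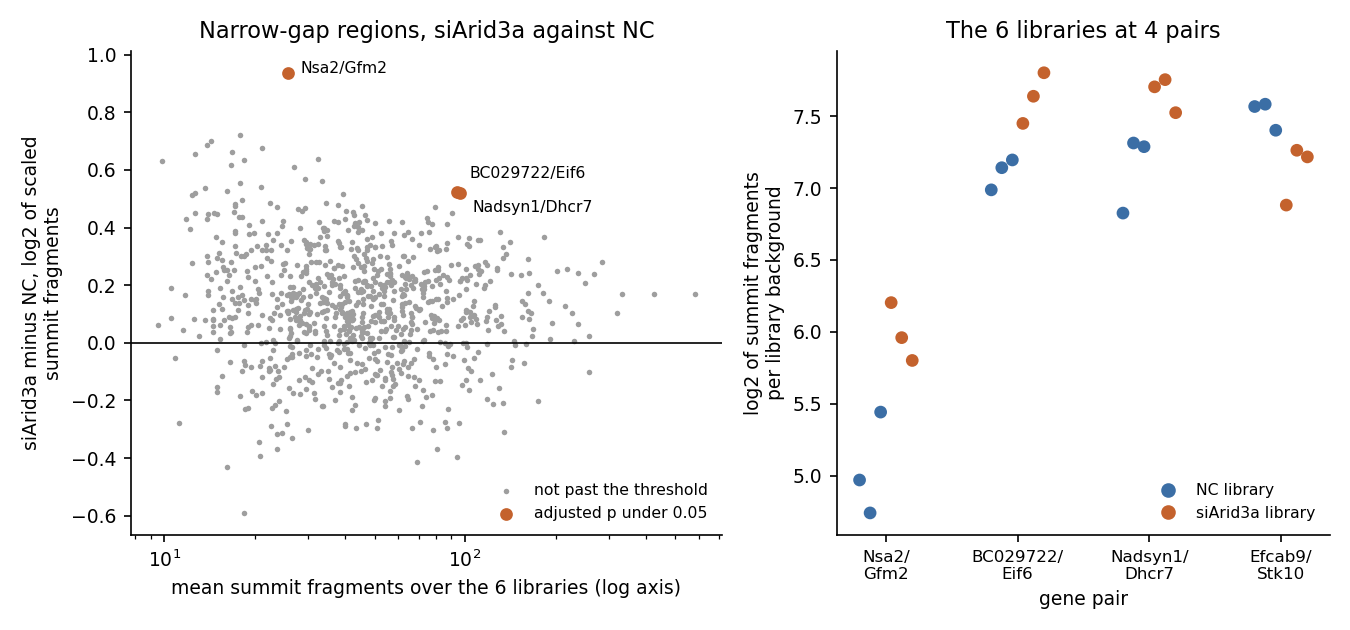
Left, difference between siArid3a and NC in the log2 of scaled summit fragments (vertical axis) against mean summit fragments (log axis) for the narrow-gap regions, with the 3 that passed an adjusted p of 0.05 in orange; right, the scaled log2 values of the 6 libraries at these 3 pairs and at Efcab9/Stk10. The siArid3a libraries lie above the NC libraries at the first 3 pairs and below them at Efcab9/Stk10.

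The groups did not overlap at 205 of the 922 regions on the scaled values. siArid3a was higher at 177 (19.2%, against 15.2% of all shared regions) and lower at 28 (3.04%, against 3.46%). After Nsa2/Gfm2 the largest differences upward were at Camta2/Inca1 (0.72), Fam229b/Tube1 (0.69), Ebp/Porcn (0.68) and Tctn3/Entpd1 (0.66), with limma adjusted p of 0.110 to 0.154. The largest downward were at Hnrnpm/Marchf2 (−0.59), Timm8a1/Btk (−0.43), Pip4k2b/Cwc25 (−0.41), Efcab9/Stk10 (−0.40) and Znrd1/Znrd1as (−0.37), with adjusted p of 0.124 to 0.402. None of these 9 passed, which does not show that they did not differ. Hnrnpm/Marchf2 had 29, 25 and 20 fragments in NC and 10, 11 and 15 in siArid3a, and Timm8a1/Btk 19, 24 and 19 against 7, 13 and 15, so these differences rest on few fragments. The same holds upward, where Fam229b/Tube1 had 11, 12 and 14 against 16, 13 and 17, and Camta2/Inca1 15, 19 and 13 against 19, 16 and 25.

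Peaks over the narrow-gap regions covered less DNA in the siArid3a libraries. The summed length was 821.6 ± 16.2 kb in NC and 738.5 ± 21.2 kb in siArid3a (SD, n = 3 each, exact permutation test, two-sided, p = 0.1, the smallest possible). As a share of the length covered over all shared regions it was 4.02% ± 0.0340 and 4.07% ± 0.00637 (exact permutation p = 0.1). The share was thus not lower in siArid3a, and the shorter length was found over the other shared regions as well. Fewer fragments were counted at the summits of the 922 regions in siArid3a, with medians of 35, 39 and 42 against 46, 50 and 45 in NC. The part of this in the shorter length was not tested.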

How the data were processed

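The submitters' processing notes name Bowtie2, Picard, MACS2 and the mm10 build. No version or option is given in the sources used here. Each library has its own peak list. The authors deposited for each peak a score, a fold (a ratio of pileup to local background) and −log10 p- and q-values.

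From fold and −log10 p, whole summit fragments and background were solved as MACS2 defines them (tolerance 0.002). Regions take the strongest peak per library. Genes and promoter windows are RefSeq GRCm38.p6, with strand for 17492 of 21887 genes. limma 3.58.1 (R 4.3.3, trend, Benjamini-Hochberg, pseudocount 1) tested log2 scaled fragments; single values used exact permutation tests (Python 3.11.15). The calculations were tested on simulated data.

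Members and lists were chosen with earlier results of these data known. Named pairs are the 10 strongest by lowest −log10 q percentile, the 5 narrowest gaps and 5 widest regions, pairs past the test or largest among groups apart, textbook pairs (1 is not reported here), the 3 strongest per list and the 5 each side of the limit. Alternatives were scaling, pseudocount, filters, merging, gap limit, summit rule, replicate block and leaving out libraries.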

Additional observations from a re-analysis of the deposited data

How the results depend on the processing

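Fragments at summits are few (medians of 16 to 20 over all peaks), and only regions present in all lists were compared. Of 94 values under other settings, 44 kept their direction and their side of the threshold, or moved by less than the limit set, 26 moved by more, and 24 kept their direction but no longer passed. Counts of calls pool both directions. Their split turned with median centring, from 121 higher and 11 lower in siArid3a to 28 and 36, and from 3 and 0 to 0 and 1 in narrow gaps. Regions merged from 5 libraries, leaving out 1 at a time, gave differences from other gene ends of 0.812 to 0.864 in fold, 94 to 100.4 bp in width and 7.16 to 7.42 points in percentile, and head-to-head against other narrow-gap regions of 2.35 to 2.44 in fold. All had p = 0.0625, the smallest that an exact sign-flip permutation over 5 libraries can give. The share of summits in the gap was 23.4% with gaps up to 500 bp, and 63.9% over the 411 regions with a summit in the gap in at least 1 library.

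The calls between siArid3a and NC changed with most settings. Testing only regions with a mean of at least 20 summit fragments gave 179 calls, 4 in narrow gaps, and the 3 named pairs passed (limma, adjusted p 0.0194 to 0.0412). All shared regions gave 64 calls with median centring, 0 with the deposited fold, 79 with a pseudocount of 0, 28 with siArid3a libraries 2 and 3 as 1 sample and, in a combination added after seeing the data, 21 with that and median centring. The narrow-gap regions gave 1, 0, 2, 1 and 0. Leaving out 1 library gave 6 to 1147 calls, and 0 to 51 in narrow gaps. The highest counts came without siArid3a library 1, the lowest over all regions without NC library 1. Leaving out 1 library, Nsa2/Gfm2 passed in 2 of 6 fits, without NC library 3 or siArid3a library 1 (limma, adjusted p 0.0168 to 0.150), and BC029722/Eif6 (0.000941 to 0.248) and Nadsyn1/Dhcr7 (0.0107 to 0.352) only without siArid3a library 1. With the replicate number as a block there were 414 calls, 10 in narrow gaps, but same-numbered libraries deviated together with correlations of only 0.0419, 0.0332 and −0.0229, so they share a number and no known pairing.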
